A study of Mus musculus with 6 samples.

Results

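The Toll-like receptor family was examined in the mRNA of splenic monocytes from mice given water or vancomycin. The members were chosen by gene symbol: Tlr1, Tlr2, Tlr3, Tlr4, Tlr5, Tlr6, Tlr7, Tlr8, Tlr9 and Tlr13, each on a single identifier, make up 10 of the 46072 identifiers in the tables. The Con group was 3 female C57BL/6 mice gavaged with water for 6 days, and the Van group was 3 such mice that received vancomycin, 2 mg a day split over morning and afternoon, for the same 6 days. Both groups were then left without gavage, for 6 to 8 days by the labels and for 8 days by the description of the RNA experiment. The mice were 8 to 10 weeks old when obtained, and the labels give the strain as the only genotype. Monocytes were taken from the spleen by negative magnetic selection, and the RNA was read without stimulation, in 1 library for each mouse. For the culture assays of the study, spleens were pooled in pairs, and whether this was done for the RNA is not stated. Vancomycin acts mainly on Gram-positive bacteria of the gut, and the question was how the later microbiome bears on the receptors of systemic monocytes. The 6 libraries held between 43.4M and 61.8M estimated counts.

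Toll-like receptors recognise conserved microbial molecules. TLR1, TLR2, TLR4, TLR5 and TLR6 sit on the cell surface, where TLR2 pairs with TLR1 or TLR6 to bind bacterial lipoproteins and lipids, TLR4 binds lipopolysaccharide and TLR5 binds flagellin. TLR3, TLR7, TLR8, TLR9 and TLR13 sit in endosomes, where TLR3 binds double-stranded RNA, TLR7 and TLR8 bind single-stranded RNA or its breakdown products, TLR9 binds unmethylated CpG DNA and TLR13 binds a stretch of bacterial ribosomal RNA. Except for TLR3, which signals through TRIF, the receptors signal through MyD88, and TLR4 uses both. Monocytes carry many of them. In the study, serine-glycine lipids of gut Bacteroidota, which are TLR2 ligands, were the bacterial products of interest. The paper states that these lipids signal through TLR2 paired with TLR6.

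Tlr1 and Tlr6 are neighbours on chromosome 5 and partly share their sequence, which bears on how far their values can be told apart. On GRCm38, Tlr1 lies at chr5:64924679-64933563 and Tlr6 at chr5:64952031-64960097, both on the minus strand. Among the annotated transcripts of the 10 members, Tlr1 and Tlr6 shared an identical run of 229 bases, and the next longest run shared by any pair was 18 bases, between Tlr4 and Tlr6. The run is coding sequence and lies within 1 exon of each gene. It is shown with 20 bases on either side, at chr5:64925517-64925785 for Tlr1 and chr5:64953808-64954076 for Tlr6, as the mRNA reads, and capitals mark the 2 bases that differ.
Tlr1: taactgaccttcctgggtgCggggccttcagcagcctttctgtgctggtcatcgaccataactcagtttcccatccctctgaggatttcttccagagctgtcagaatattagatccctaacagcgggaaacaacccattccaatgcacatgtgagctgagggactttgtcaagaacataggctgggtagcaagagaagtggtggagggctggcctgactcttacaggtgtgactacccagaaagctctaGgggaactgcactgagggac
Tlr6: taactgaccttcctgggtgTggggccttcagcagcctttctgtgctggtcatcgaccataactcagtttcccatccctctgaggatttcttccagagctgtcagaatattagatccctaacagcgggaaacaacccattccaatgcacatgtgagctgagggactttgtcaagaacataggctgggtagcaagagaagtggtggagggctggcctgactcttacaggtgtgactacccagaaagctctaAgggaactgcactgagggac
Of all stretches of 100 bases in the transcript, 8.85% of those of Tlr1 and 7.24% of those of Tlr6 also occur in the other gene, and none of those of the other 8 members occur in another member. How reads that match both genes were assigned is not stated, so the values of Tlr1 and Tlr6 are uncertain to that extent. Tlr3 shares 258 exonic bases with Gm45542 on the opposite strand. The library kit keeps the strand, but its use in counting is not given in the sources used here.

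The family spanned a wide range of levels in these monocytes, and all 10 members were detected in all 6 mice. Levels of different genes are compared in FPKM, which is per transcript length. The mean FPKM over the 6 mice was 101 for Tlr13, 94.7 for Tlr7, 58.5 for Tlr2, 44.6 for Tlr8, 26.7 for Tlr9, 13.4 for Tlr1, 9.84 for Tlr6, 7.98 for Tlr4, 2.22 for Tlr5 and 0.983 for Tlr3. Tlr13 was thus at 102 times the level of Tlr3, and 4 of the 5 highest receptors were endosomal.

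Most neighbours in this order were separate in every mouse. Tlr7 and Tlr2, Tlr2 and Tlr8, Tlr8 and Tlr9, Tlr9 and Tlr1, Tlr4 and Tlr5, and Tlr5 and Tlr3 had ranges over the 6 mice that did not overlap. Tlr13 and Tlr7 overlapped, with Tlr13 the higher in 5 of 6 mice. Tlr1 and Tlr6 overlapped too, although Tlr1 was the higher in all 6 mice, and Tlr6 and Tlr4 overlapped with Tlr6 the higher in 5 of 6. Among the genes detected, Tlr13 stood at the 97.5th percentile of FPKM and Tlr3 at the 51.6th.

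**Figure D1:**
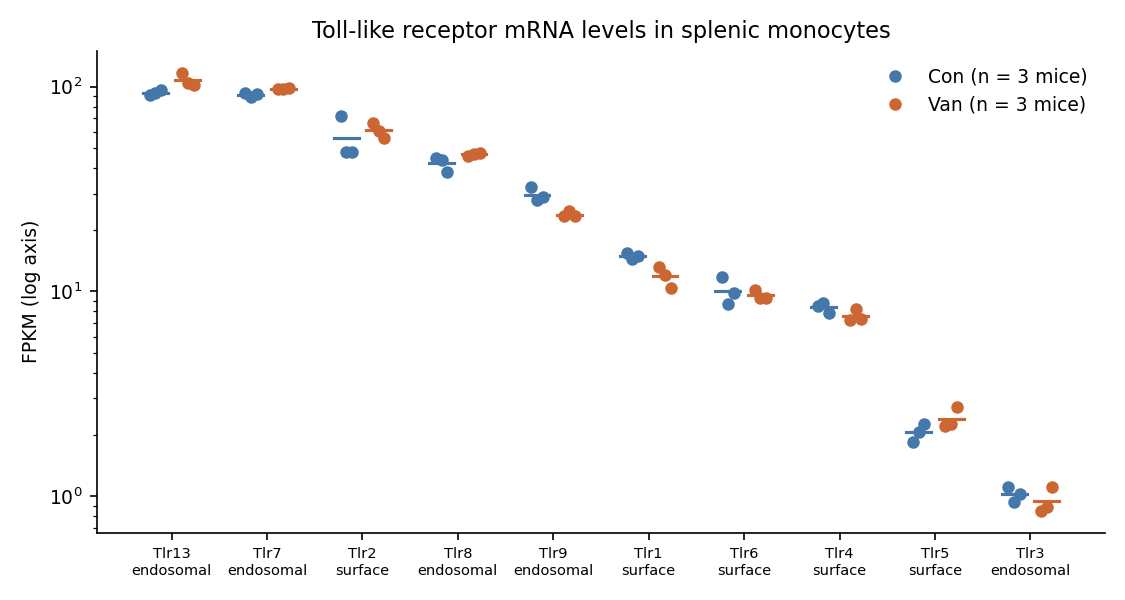
FPKM (log axis) of the 10 Toll-like receptor genes in each mouse, ordered by the mean over 6 mice, with the class of each receptor under its name. Points are mice, 3 Con and 3 Van, and bars are group means, which run from 108 for Tlr13 in Van to 0.946 for Tlr3 in Van.

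In the comparison of Van with Con, no receptor passed the test: 0 of the 10 had an adjusted p of at most 0.05 (edgeR's quasi-likelihood F test, adjusted after Benjamini and Hochberg over 16138 genes), where 2.00% of all genes passed. At an unadjusted p under 0.05 stood 3 of the 10, against 16.5% of all genes. Of these, Tlr13 was higher in Van, beside 8.37% of all genes, and Tlr1 and Tlr9 were lower, beside 8.14%. DESeq2's Wald test, the test the study names, called 2 of the 10, Tlr1 and Tlr9, against 7.34% of all genes. Both were lower in Van, beside 3.60% of all genes called lower and 3.73% called higher. With limma on log2(FPKM + 1), 0 of the 10 were called, against 0.0992% of all genes, and 4 had an unadjusted p under 0.05, against 12.4%. By direction, 5 receptors were higher and 5 lower in Van, and the median log2 fold change of the 10 was 0.0171, beside -0.0014 over all genes.

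The mice of the groups did not overlap for 5 of the 10 receptors, beside 22.5% of all genes. Above every Con mouse in all 3 Van mice were Tlr7, Tlr8 and Tlr13, beside 11.5% of all genes, and below were Tlr1 and Tlr9, beside 11.0%. For a single gene, the exact two-sided permutation test over 3 against 3 mice cannot go below a p of 0.1, which these 5 reached.

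**Figure D2:**
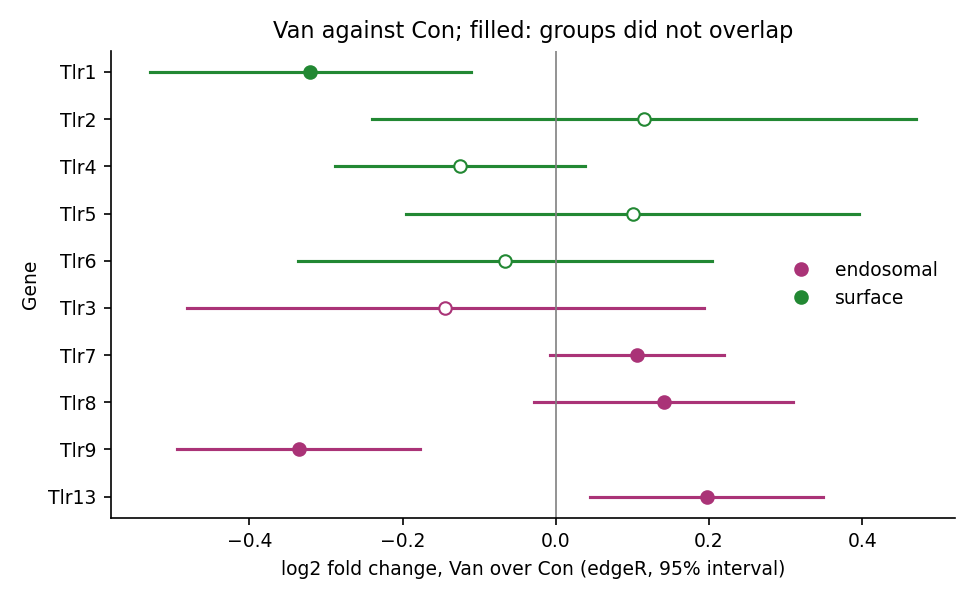
Log2 fold change of each receptor gene, Van over Con, with its 95% interval from edgeR's quasi-likelihood fit, surface receptors in green and endosomal receptors in purple. Filled points mark the 5 receptors whose groups did not overlap, of which Tlr1 and Tlr9 are below 0 and Tlr7, Tlr8 and Tlr13 above.

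Tlr2, the common partner of the lipoprotein receptors, did not differ detectably. It was at 71.7, 48.1 and 48.1 FPKM in the Con mice and at 66.6, 60.8 and 56.0 in the Van mice. The groups overlapped, because 1 Con mouse was above all Van mice and the other 2 were below them all. The log2 fold change was 0.12 (standard error 0.16, edgeR's adjusted p = 0.792), and its 95% interval ran from -15.3% to 38.6%. The value depended on single mice. It was 0.341 without Con 1, 0.021 without Con 2, 0.01 without Con 3 and 0.042 without Van 1, and the adjusted p lay between 0.118 and 0.986 over all 6 ways of leaving out a mouse.

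Tlr1, the partner of TLR2 for triacylated lipoproteins, was lower in each Van mouse than in any Con mouse. Its FPKM was 15.3, 14.4 and 15.0 in Con and 13.2, 12.1 and 10.4 in Van. The Con mice lay close together and the Van mice spread over a wider range below them. The log2 fold change was -0.32 (standard error 0.09), a difference of -19.9% with a 95% interval from -30.8% to -7.40%. It did not pass edgeR's test (adjusted p = 0.125) and passed DESeq2's (adjusted p = 0.041).

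Tlr6, the partner of TLR2 for diacylated lipopeptides, was at 11.8, 8.65 and 9.88 FPKM in Con and 10.2, 9.31 and 9.26 in Van. The Van mice lay within the range of the Con mice. For Tlr6 the log2 fold change was -0.07 (standard error 0.12, edgeR's adjusted p = 0.850) and its 95% interval ran from -20.8% to 15.2%. Without Con 1 the direction turned, to 0.077.

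The ratios between the 3 genes of the TLR2 group were also taken within each mouse. These ratios were chosen after the values were seen and are given as a description, with no test. The ratio of Tlr2 to Tlr1 FPKM was 4.67, 3.34 and 3.22 in Con and 5.06, 5.04 and 5.40 in Van, so that each Van mouse was above each Con mouse. The ratio of Tlr1 to Tlr6 was 1.30, 1.66 and 1.51 in Con and 1.29, 1.30 and 1.12 in Van, where the highest Van mouse and the lowest Con mouse were nearly level. The ratio of Tlr2 to Tlr6 was 6.09, 5.56 and 4.87 in Con and 6.54, 6.53 and 6.05 in Van, and these overlapped. The ratio of Tlr2 to the sum of Tlr1 and Tlr6 was 2.64, 2.09 and 1.94 in Con and 2.85, 2.84 and 2.85 in Van. The sum of Tlr1 and Tlr6 itself, 25.0 ± 2.04 FPKM in Con and 21.4 ± 1.85 in Van (SD, n = 3), overlapped between the groups.

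Tlr4, the lipopolysaccharide receptor, was at 8.45, 8.75 and 7.84 FPKM in Con and 7.22, 8.23 and 7.37 in Van. One Van mouse fell among the Con mice and the other 2 lay below them. Tlr4 had a log2 fold change of -0.12 (standard error 0.07, edgeR's adjusted p = 0.439). Tlr5, the flagellin receptor, was at 1.84, 2.05 and 2.25 FPKM in Con and 2.19, 2.26 and 2.74 in Van, with the groups overlapping. Its log2 fold change was 0.10 (standard error 0.13, edgeR's adjusted p = 0.777), and without Van 3, the highest mouse, it was -0.012.

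Tlr9, the CpG DNA receptor on chromosome 9 (chr9:106222598-106226883, plus strand), had the smallest p of the family. Its FPKM was 32.2, 27.9 and 29.0 in Con and 23.3, 24.6 and 23.2 in Van. The Van mice lay within a narrow band below all Con mice. The log2 fold change was -0.34 (standard error 0.07), a difference of -20.8% with a 95% interval from -29.0% to -11.6%. With edgeR the adjusted p was 0.0509, just outside the threshold of 0.05, and Tlr9 was the 337th gene by p where 322 genes passed. With DESeq2 the adjusted p was 0.000768. The call therefore turns on the tool and on small choices in the fit, while the log2 fold change lay between -0.339 and -0.327 under the 10 other settings that kept all mice. Without any 1 mouse the adjusted p was between 0.0907 and 0.168.

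B cells and plasmacytoid dendritic cells are known for high Tlr9, and their markers were measured at low levels. The magnetic selection is stated to leave CD45R- cells, a gate that removes B cells and most plasmacytoid dendritic cells. The 6 B cell markers summed to between 10.2 and 12.5 FPKM in Con and between 8.69 and 10.6 in Van, most of it Cd79b, followed by Cd79a. Of these markers, 4 stayed under 1 FPKM in every library. The 6 plasmacytoid dendritic cell markers summed to between 7.82 and 11.7 FPKM in Con and between 7.79 and 9.94 in Van, with Klk1 and Cox6a2 the highest. All 6 B cell markers were lower in Van in the fit, and 0 were called by edgeR or DESeq2. Of the plasmacytoid dendritic cell markers 4 were lower and 2 higher in Van, their median log2 fold change was -0.688, and edgeR called 0, where 3 had an unadjusted p under 0.05, against 16.5% of all genes. DESeq2 called 1 lower, beside 3.60%. Siglech, a defining marker of these cells, was at 1.30, 1.52 and 1.44 FPKM in Con and 0.622, 1.11 and 0.609 in Van, with a log2 fold change of -0.88 (edgeR's adjusted p = 0.113, DESeq2's 0.0356). Ccr9 and Pacsin1 were likewise lower in each Van mouse, with log2 fold changes of -0.64 (edgeR's adjusted p = 0.218) and -1.19 (edgeR's adjusted p = 0.190), while Klk1 was at 0.10 (edgeR's adjusted p = 0.955) and Cox6a2 at 0.37 (edgeR's adjusted p = 0.388). The part of these cells in the Tlr9 difference was not tested. In these bulk samples, fewer cells of a type and less RNA in each cell cannot be told apart.

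Tlr13, the receptor for bacterial ribosomal RNA (chrX:106143204-106160493, plus strand), was the highest receptor and was higher in each Van mouse. Its FPKM was 91.1, 93.1 and 96.1 in Con and 117, 104 and 102 in Van. The Con mice lay close together, and Van 1 stood above the other Van mice. The log2 fold change was 0.20 (standard error 0.07), a difference of 14.6% with a 95% interval from 3.18% to 27.3%, and the adjusted p was 0.190 with edgeR and 0.0866 with DESeq2. Without Van 1 the log2 fold change was 0.126, and with each mouse left out in turn it lay between 0.126 and 0.235. In the Con mice the ranges of Tlr13 and Tlr7 overlapped, while in the Van mice each Tlr13 value was above each Tlr7 value. The 6 markers of red pulp macrophages, a further phagocyte of the spleen, were led by Hmox1 and Vcam1 and summed to between 874 and 1060 FPKM in Con and between 989 and 1370 in Van. All 6 were higher in Van in the fit, and the groups did not overlap for 3 of them, beside 11.5% of all genes. The groups overlapped for Spic (log2 fold change 0.07, edgeR's adjusted p = 0.830), Slc40a1 (0.10, adjusted p = 0.754) and Hmox1 (0.21, adjusted p = 0.467). None of the 6 passed edgeR's test, where 3 had an unadjusted p under 0.05, against 16.5% of all genes. DESeq2 called 1 higher, beside 3.73% of all genes, which was Vcam1 (log2 fold change 0.46, edgeR's adjusted p = 0.0621, DESeq2's 0.000432). The part of these cells in the Tlr13 values was not tested.

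Tlr7 and Tlr8, the single-stranded RNA receptors, are neighbours on chromosome X (Tlr7 at chrX:167304929-167330558 and Tlr8 at chrX:167242696-167264329, both on the minus strand). Tlr7 was at 93.2, 89.3 and 91.8 FPKM in Con and at 97.2, 98.0 and 98.6 in Van. The mice of each group lay close together, and the gap between the groups was small. Tlr7 had a log2 fold change of 0.11 (standard error 0.05, edgeR's adjusted p = 0.336). Tlr8 was at 45.0, 43.7 and 38.3 FPKM in Con and at 45.7, 47.2 and 47.6 in Van. The Van mice lay just above the highest Con mouse. Tlr8 had a log2 fold change of 0.14 (standard error 0.07, edgeR's adjusted p = 0.395), and of 0.069 without Con 3. Tlr13 is on the same chromosome, where the 535 genes tested on chromosome X had a median log2 fold change of -0.0437.

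Tlr3, the double-stranded RNA receptor, was the lowest member, with between 225 and 300 estimated counts in a library. It was at 1.10, 0.935 and 1.02 FPKM in Con and at 0.848, 0.887 and 1.10 in Van. The groups overlapped. The log2 fold change was -0.14 (standard error 0.15, edgeR's adjusted p = 0.706), and the 95% interval ran from -28.4% to 14.3%. The log2 value was -0.07 without Con 1, -0.093 without Van 1 and -0.237 without Van 3.

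Within each mouse, the RNA receptors stood higher over the DNA receptor in Van than in Con. The ratio of Tlr7 to Tlr9 FPKM was 2.89, 3.20 and 3.17 in Con and 4.17, 3.99 and 4.24 in Van. The ratio of Tlr8 to Tlr9 was 1.40, 1.57 and 1.32 in Con and 1.96, 1.92 and 2.05 in Van. The ratio of Tlr13 to Tlr9 was 2.83, 3.34 and 3.31 in Con and 5.02, 4.23 and 4.39 in Van. The groups were apart for all 3 ratios, which share Tlr9 and were chosen after the values were seen, so that they are a description of the single-gene values above. The exact two-sided test of 3 against 3 mice could not have given a p under 0.1 for any of them.

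**Figure D3:**
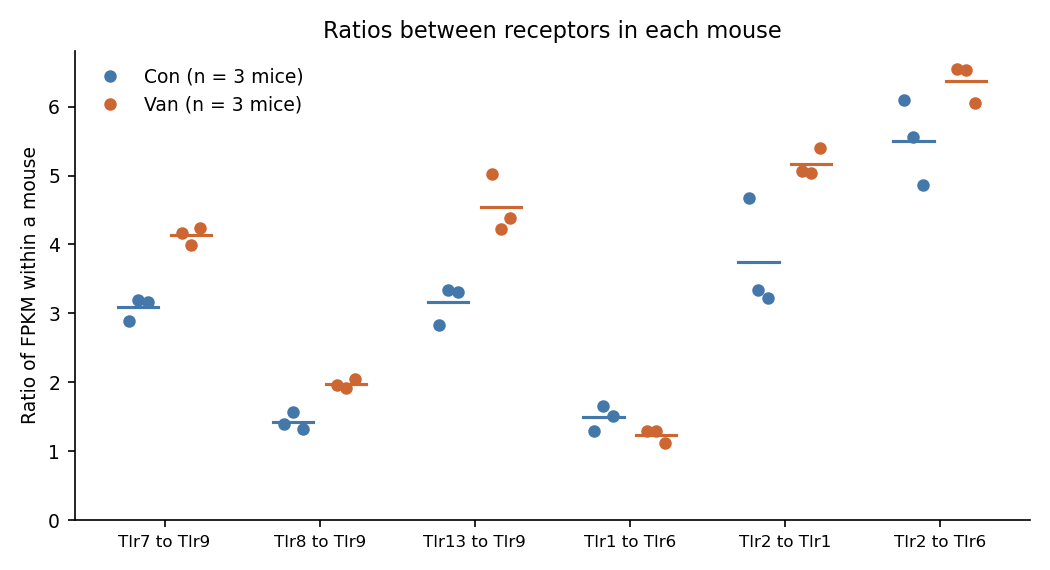
Ratios of FPKM between receptor genes within each mouse (linear axis from 0), with points for the 3 Con and 3 Van mice and bars for group means. The ratios to Tlr9 are apart between the groups, with means of 3.09 in Con and 4.13 in Van for Tlr7 to Tlr9, while Tlr2 to Tlr6 overlaps.

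As a class, the endosomal receptors stood at the higher level, and in both classes some genes were higher and some lower in Van. The 5 endosomal genes summed to 263, 255 and 256 FPKM in Con and to 284, 275 and 273 in Van, so that each Van mouse was above each Con mouse (258 ± 4.11 and 277 ± 6.16, SD, n = 3). The largest difference in that sum was Tlr13, with a mean of 93.4 FPKM in Con and 108 in Van. Tlr7 was at 91.4 and 97.9, Tlr8 at 42.4 and 46.8, Tlr9 at 29.7 and 23.7, and Tlr3 at 1.02 and 0.946. The 5 surface genes summed to 109, 81.9 and 83.0 FPKM in Con and to 99.3, 92.6 and 85.8 in Van, which overlapped, and most of that sum and its spread was Tlr2. The endosomal share of the summed FPKM was 70.7%, 75.7% and 75.5% in Con and 74.1%, 74.8% and 76.1% in Van, and overlapped. Among the surface genes 2 were higher and 3 lower in Van, with a median log2 fold change of -0.0662, which turned to 0.0768 without Con 1. Among the endosomal genes 3 were higher and 2 lower, with a median of 0.106, and without Con 3 it was 0.0685. These medians stand beside -0.0014 over all genes and were not tested against each other.

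Tlr11 and Tlr12, the remaining mouse family members, bind profilin of protozoa and were low. Tlr11 was at 11.1, 8.76 and 10.9 CPM (counts scaled to library size) in Con and 9.18, 6.33 and 7.47 in Van. Its log2 fold change was -0.41 (standard error 0.16, edgeR's adjusted p = 0.244). Tlr12 was at 5.94, 4.05 and 6.03 CPM in Con and 4.25, 3.88 and 3.74 in Van, with a log2 fold change of -0.43 (standard error 0.18, edgeR's adjusted p = 0.289). The groups overlapped for both. Type 1 conventional dendritic cells carry these receptors and Tlr3, and their 6 markers, led by Wdfy4 and Cadm1, summed to between 59.2 and 62.9 FPKM in Con and between 55.3 and 57.4 in Van, without overlap. Of the 6 markers 5 were lower and 1 higher in Van. EdgeR called 1 lower, beside 0.917% of all genes, and DESeq2 called 2, Clec9a and Xcr1, beside 3.60%. The log2 fold changes of the markers with the highest FPKM were -0.11 for Wdfy4 and 0.07 for Cadm1. Clec9a, a defining marker of these cells, fell by 1.12 on the log2 scale (edgeR's adjusted p = 0.0131), and the adjusted p was 0.0721 without Con 3 and 0.0758 without Van 2. The magnetic selection is stated to leave CD11b+ cells, and how many of these dendritic cells pass it was not measured. The part of these cells in the values of Tlr3, Tlr11 and Tlr12 was not tested.

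Of 51 further genes of the pathway, 1 passed edgeR's test, and it was lower in Van, beside 0.917% of all genes called lower and 1.08% called higher. At an unadjusted p under 0.05 stood 17 of the 51, against 16.5% of all genes. DESeq2 called 11, with 4 above and 7 below Con in the Van group, beside 7.34% of all genes (3.73% higher and 3.60% lower). In direction the 51 genes were divided, with 24 higher and 27 lower in Van and a median log2 fold change of -0.0086.

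The gene that passed was Cd180, among the 6 coreceptors and accessory proteins. CD180 is a relative of the Toll-like receptors that lacks their signalling domain and tempers TLR4 signalling in myeloid cells. It was at 245, 206 and 232 CPM in Con and 151, 133 and 126 in Van. All Van mice were well below all Con mice. On the log2 scale it fell by 0.74 (its standard error 0.09, edgeR's adjusted p = 0.0129), and the adjusted p was 0.0721 without Con 3 and 0.0758 without Van 2. Exons of Mast4 on the opposite strand cover 182 bases of its exons. Ly86, which encodes its partner MD-1, was at 250, 206 and 212 CPM in Con and 176, 184 and 191 in Van. The groups did not overlap, and the log2 fold change was -0.28 (edgeR's adjusted p = 0.126, DESeq2's 0.0210). Cd14, which hands lipopolysaccharide to TLR4 and lipopeptides to TLR2, was at 280, 306 and 268 CPM in Con and 360, 317 and 362 in Van. Here the Van mice were above, with a log2 fold change of 0.28 (edgeR's adjusted p = 0.101, DESeq2's 0.00934). Of the 6 genes in all, 2 were higher and 4 lower in Van, with a median of -0.0418. At an unadjusted p under 0.05 with edgeR stood 3 of the 6, against 16.5% of all genes. DESeq2 called Cd14 higher, beside 3.73% of all genes, and 2 genes lower, Cd180 and Ly86, beside 3.60%.

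The 12 trafficking and processing genes, which fold the receptors, carry them to endosomes and cleave them there, had 9 members higher and 3 lower in Van and a median log2 fold change of 0.0918. EdgeR called 0 of them, and DESeq2 called 4, of which 3 were higher (Hsp90b1, Lgmn and Slc15a4) and 1 lower (Unc93b1), beside 3.73% of all genes called higher and 3.60% called lower by DESeq2. At an unadjusted p under 0.05 with edgeR stood 6 of the 12, against 16.5% of all genes. The groups did not overlap for 5 genes that were higher, beside 11.5% of all genes, and for 1 that was lower, beside 11.0%. Hsp90b1, which encodes the chaperone gp96 needed to fold most of these receptors, was at 436, 398 and 443 CPM in Con and 510, 598 and 531 in Van. Its log2 fold change was 0.36 (standard error 0.07) and its adjusted p 0.050006 with edgeR, so that 6 of the 16 other settings called it. Unc93b1, which escorts the endosomal receptors from the endoplasmic reticulum, was lower in each Van mouse, at 796, 765 and 838 CPM in Con and 631, 694 and 661 in Van. Its log2 fold change was -0.27 (standard error 0.06, edgeR's adjusted p = 0.0607, DESeq2's 0.00149).

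Among the 23 adaptors and proximal kinases, 8 were higher and 15 lower in Van, 0 were called by edgeR and the median log2 fold change was -0.0859. DESeq2 called 3, Ikbkg, Irf7 and Pik3ap1, all lower, beside 3.60% of all genes. At an unadjusted p under 0.05 with edgeR stood 6 of the 23, against 16.5% of all genes. The groups did not overlap for 6 genes that were lower, beside 11.0% of all genes, and for 1 that was higher, beside 11.5%. The smallest p belonged to Ikbkg, which encodes the regulatory subunit of the IκB kinase, with a log2 fold change of -0.25 (edgeR's adjusted p = 0.101), and to Pik3ap1, which encodes the adaptor BCAP, with -0.41 (edgeR's adjusted p = 0.109). For both, the Van mice lay below the Con mice. The 10 negative regulators were split evenly, with 5 higher and 5 lower, and a median of -0.0124. EdgeR called 0 of them, where 2 had an unadjusted p under 0.05, against 16.5% of all genes, and DESeq2 called 1, Cyld, which was lower, beside 3.60%. The smallest p belonged to the deubiquitinase gene Cyld, with a log2 fold change of -0.24 (edgeR's adjusted p = 0.0715, DESeq2's 0.00626), and to the ubiquitin ligase gene Rnf216, with 0.20 (edgeR's adjusted p = 0.190).

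**Figure D4:**
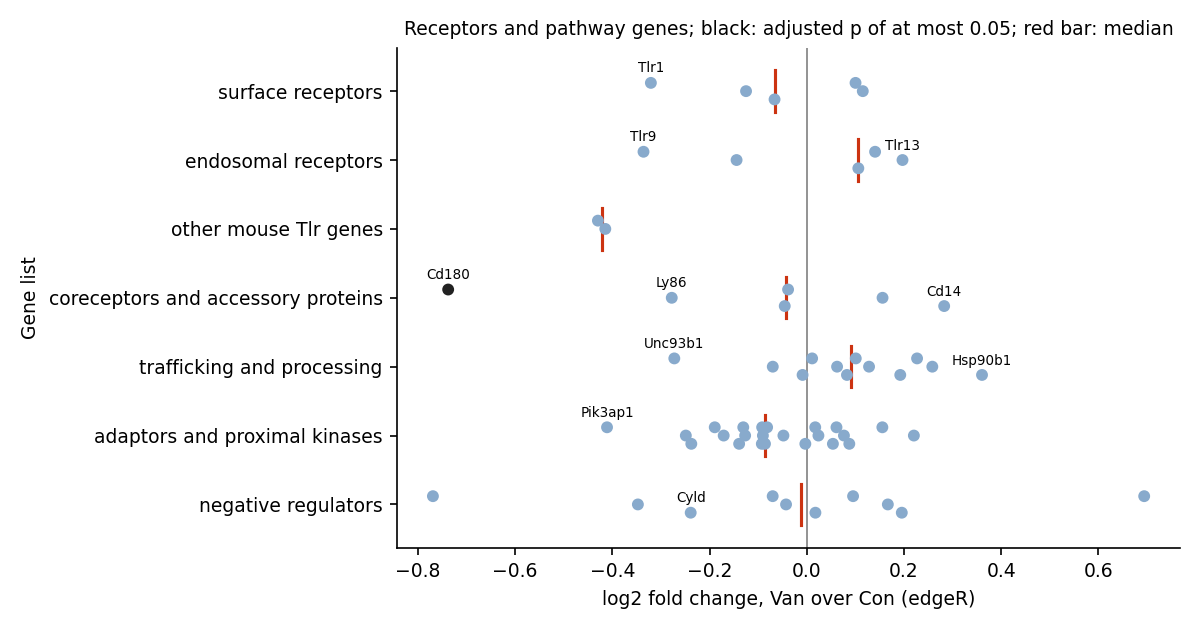
Log2 fold change, Van over Con, from edgeR for the receptors and the pathway lists, with 1 point for each gene and a red bar at each list's median. Cd180, the only black point, is the 1 gene with an adjusted p of at most 0.05, and the lists spread to both sides of 0.

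The window of 250 bases before the start of transcription was searched in RefSeq's promoter table (GRCm38.p6) for GAGGAA, a core of sites for PU.1, the factor that marks the myeloid lineage, and for a core of interferon-stimulated response elements, GAAA followed after any 2 bases by GAAA, on both strands. The table held 8 of the 10 members, with 2 windows each for Tlr1 and Tlr6 and 1 for each of the others. GAGGAA was found in 1 of the 2 windows of Tlr1 and in the windows of Tlr8, Tlr9 and Tlr13, beside 23.3% of all 32851 windows. It was found in no window of Tlr2, Tlr3, Tlr5 and Tlr6, nor in the other window of Tlr1 (chr5:64932700-64932949). The second motif was found in 1 of the 2 windows of Tlr6 only, as 2 overlapping matches, beside 2.98% of all windows. Windows of 3 receptors whose groups did not overlap are shown as the gene reads, with the match in capitals, for Tlr1 at chr5:64933559-64933808 (minus strand), for Tlr8 at chrX:167264330-167264579 (minus strand, where the match reads TTCCTC) and for Tlr9 at chr9:106222348-106222597 (plus strand).
Tlr1: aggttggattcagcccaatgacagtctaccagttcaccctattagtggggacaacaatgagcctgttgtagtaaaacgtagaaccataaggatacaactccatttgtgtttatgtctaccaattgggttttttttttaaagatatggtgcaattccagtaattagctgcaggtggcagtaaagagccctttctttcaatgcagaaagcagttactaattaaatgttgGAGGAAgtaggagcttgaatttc
Tlr8: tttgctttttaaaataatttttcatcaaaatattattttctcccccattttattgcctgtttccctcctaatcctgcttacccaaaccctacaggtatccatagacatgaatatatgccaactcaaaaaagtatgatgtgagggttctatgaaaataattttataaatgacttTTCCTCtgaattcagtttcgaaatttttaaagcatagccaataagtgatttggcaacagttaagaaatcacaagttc
Tlr9: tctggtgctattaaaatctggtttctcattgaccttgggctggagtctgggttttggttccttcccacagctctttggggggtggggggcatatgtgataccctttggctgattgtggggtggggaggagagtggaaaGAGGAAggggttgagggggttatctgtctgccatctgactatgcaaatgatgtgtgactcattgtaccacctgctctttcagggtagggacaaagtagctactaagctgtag
The 4 windows with a match belong to 2 receptors that were lower and 2 that were higher in Van. A match of letters is a description of the window and no measurement of binding.

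Over the 6 mice, the genes closest in pattern were listed for Tlr2 and Tlr1, as the root-mean-square distance between centred log2 CPM values among 12684 genes with a mean of at least 1 CPM. For Tlr2, whose own values had a root-mean-square deviation of 0.224, they were Rps18-ps3 (0.0628), Ece2 (0.0767) and Fam46c (0.0855). For Tlr1, with a deviation of 0.195, they were St6galnac4 (0.0397), Lcor (0.0434) and Pcnx (0.0520).

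The libraries carried the markers of monocytes. The magnetic selection is stated to leave cells negative for surface markers of T cells, NK cells, neutrophils and eosinophils. The 8 monocyte markers summed to between 9490 and 10100 FPKM in Con and between 8030 and 9890 in Van, led by Lyz2 and Csf1r, and of the 8 edgeR called 2 lower, beside 0.917% of all genes, and DESeq2 called 3 lower, beside 3.60%. The 5 T cell markers, led by Thy1 and Cd3g, summed to between 3.93 and 4.94 FPKM in Con and between 2.47 and 3.52 in Van, without overlap. Of these, 4 were lower and 1 higher in Van, edgeR called 0, with 2 at an unadjusted p under 0.05, against 16.5% of all genes, and DESeq2 called 1 lower, beside 3.60%, which was Thy1 (log2 fold change -1.12, edgeR's adjusted p = 0.0771, DESeq2's 0.0073). The 6 NK cell markers, led by Klrb1c and Gzma, summed to at most 0.819 FPKM. Neutrophil markers, led by Mmp8 and Ngp, summed to at most 21.9 FPKM in Con and 31.1 in Van, with Ly6g listed at 0 in every library. Most of that sum was Mmp8, and 4 of the 6 stayed under 1 FPKM in every library. Of the 4 neutrophil markers tested, 1 was higher in Van (Mmp8, log2 fold change 0.50) and 3 were lower, with a median of -0.747. EdgeR and DESeq2 called 0 of them. Eosinophil markers, led by Ccr3 and Prg2, reached at most 24.7 FPKM, and those of type 2 conventional dendritic cells, led by Cd209a and Clec10a, at most 60.2. The 6 markers of classical monocytes, led by Ly6c2 and Chil3, summed to between 875 and 1130 FPKM in Con and between 784 and 1410 in Van. Those of nonclassical monocytes, led by Nr4a1 and Ace, summed to between 2090 and 2400 in Con and between 2120 and 2860 in Van. Of the 8 monocyte markers 1 was higher and 7 lower in Van, with a median log2 fold change of -0.192. At an unadjusted p under 0.05 with edgeR stood 4 of them, against 16.5% of all genes. The groups did not overlap for 4 that were lower, beside 11.0%. Of the nonclassical markers 5 were higher and 1 lower, with a median of 0.17, and 0 were called by edgeR or DESeq2. The classical markers were split, with 3 higher and 3 lower in Van. Ccr2, which guides classical monocytes out of the bone marrow, fell by 0.83 on the log2 scale (edgeR's adjusted p = 0.0283), and the adjusted p was between 0.0722 and 0.0991 without Con 1, Con 2, Con 3 or Van 2. Vcan, in the same list, rose by 1.54 on the log2 scale (edgeR's adjusted p = 0.0309), and the adjusted p was between 0.0701 and 0.123 without Con 1, Con 2, Con 3, Van 2 or Van 3. The 8 erythroid markers, led by Hba-a2 and Hba-a1, were between 100 and 203 FPKM in Con and between 343 and 773 in Van, and edgeR called 5 of them higher, beside 1.08% of all genes, and DESeq2 called 7, beside 3.73%. The part of these shifts in the receptor values was not tested.

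The calls for the 3 receptors at an unadjusted p under 0.05 depended on the setting to different degrees. Tlr9 passed under 5 of the 16 alternatives to the reported fit, Tlr1 passed under DESeq2 alone, and Tlr13 passed under none of them. All 3 kept their direction throughout.

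**Figure D5:**
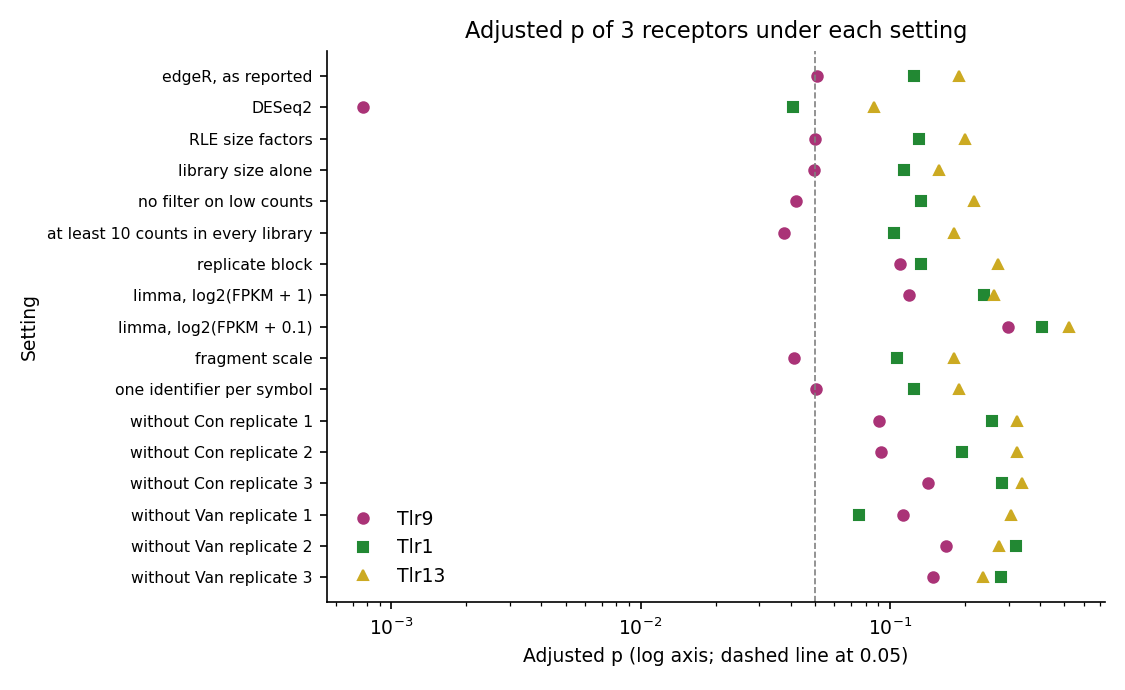
Adjusted p (log axis) of Tlr9, Tlr1 and Tlr13 in the reported edgeR fit and under each of 16 alternatives, with the threshold of 0.05 as a dashed line. Tlr9 lies nearest the line, between 0.000768 (DESeq2) and 0.299 (limma, pseudocount 0.1), and Tlr13 stays to its right in all.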

How the data were processed

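Messenger RNA of splenic monocytes was analysed in 3 Con and 3 Van libraries, grouped by the treatment in the labels. The VanLip group is not analysed here. Reads were aligned by the authors to GRCm38 with HISAT2 2.2.1 and SAMtools 1.9, and the deposited FPKM values, scaled to transcript length and library size, were made with StringTie 2.1.3 and Ballgown. The deposited expected counts came through tximport 1.26.1, with no scaling to library size. The annotation release, the strand setting and the handling of reads with several matches are not given in the sources used here. The deposited counts are on a scale of 75 bases a read, so that the libraries held 16.3M to 23.2M fragments on the fragment scale.

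The counts were rounded and tested in R 4.3.3 with edgeR 4.0.16 (TMM, expression filter at a minimum count of 10, quasi-likelihood F test, no term but the group). Adjustment was after Benjamini and Hochberg over 16138 genes, with calls made up to an adjusted p of 0.05. CPM values are relative to the TMM library size, and ± is the SD over 3 mice. P-values measure the spread between these mice. Intervals of fold changes are 95% intervals of the fit. The alternatives were DESeq2 1.42.0, limma 3.58.1 on quantile-normalized log2 FPKM with a pseudocount of 1 or 0.1, RLE size factors or library size alone, either no filter or at least 10 counts in every library, a replicate block, the fragment scale, 1 identifier for each symbol, and each mouse left out. The tests were tested on simulated data. Coordinates and transcripts are from GENCODE M21.

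The members and gene lists were chosen with earlier results of these data known. Named are all Tlr genes, of each pathway list the called genes and the 2 with the smallest p, of each marker list the 2 with the highest FPKM and those at 0 in every library, and the 3 genes nearest to Tlr2 and Tlr1. Cd14, Ly86, Lgmn, Slc15a4, Irf7, Siglech, Ccr9, Pacsin1, Xcr1, Clec9a, Spic, Slc40a1, Ccr2 and Vcan were named after their values were seen.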

Additional observations from a re-analysis of the deposited data

How the results depend on the processing

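Over all genes, 322 were called by edgeR, 965 by DESeq2, 24 by limma on log2(FPKM + 1) and 0 by limma on log2(FPKM + 0.1), where 2388 had an unadjusted p under 0.05, and between 21 and 136 with a mouse left out (21 without Van 2, 22 without Con 3). EdgeR called 320 with RLE size factors, 346 with library size alone and 356 with no filter. It called 391 with at least 10 counts in every library, 375 on the fragment scale and 332 with 1 identifier for each symbol. Receptors called numbered 0 in the reported fit, 2 with DESeq2 and 1 with library size alone, with no filter, with at least 10 counts in every library and on the fragment scale, and 0 whichever mouse was left out. The single receptor was Tlr9, whose log2 fold change was -0.335 with DESeq2 (adjusted p 0.000768), -0.331 with library size alone (0.0495), -0.332 with no filter (0.0422), -0.337 with at least 10 counts in every library (0.0377) and -0.339 on the fragment scale (0.0412). With a mouse left out it lay between -0.375 and -0.267. Tlr1 was at -0.32 with DESeq2 (adjusted p 0.041) and between -0.413 and -0.241 with a mouse left out. Tlr5 turned to -0.012 without Van 3 (range -0.012 to 0.191) and Tlr6 to 0.077 without Con 1 (range -0.173 to 0.077). The median of the surface receptors turned to 0.0768 without Con 1 (range -0.0959 to 0.0768), and that of the endosomal receptors lay between 0.0685 and 0.125. Pathway genes called numbered 1 in the reported fit, 11 with DESeq2, 2 with library size alone, with no filter, with at least 10 counts in every library, on the fragment scale and with 1 identifier for each symbol, 0 with limma at either pseudocount, and 0 to 1 with a mouse left out (0 without Con 3 and without Van 2). The causes were not tested. Cd180, Clec9a, Ccr2 and Vcan, which edgeR called, were not called by limma at either pseudocount (adjusted p between 0.0723 and 0.325). With 3 mice in each group, the width of the intervals limits what the comparison can show.

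Over all genes, same-numbered mice correlated at 0.0253, -0.0019 and -0.0726 in their deviations from the group means. Differently numbered mice correlated at between -0.0591 and 0.0591. With 3 mice in each group, these values cannot exclude a pairing in single genes. The standard error of Tlr2 was 0.0906 under a replicate block and 0.156 without it, and that of Tlr9 was 0.0718 and 0.0693. With the replicate block, 110 genes, 0 receptors and 1 pathway gene were called, and Tlr9 was at -0.333 (adjusted p 0.11). The calls of Ccr2 (adjusted p 0.0549) and Vcan (0.0895) were lost under the block. Vcam1, at an adjusted p of 0.0621 in the reported edgeR fit, was called under the block (0.0383), as it was with no filter (0.0372).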
